A study of Homo sapiens with 4 samples.

Results

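The 10 genes described here encode parts of the switch that sets the activity of translation initiation factor eIF2. They are eIF2 alpha kinase genes (EIF2AK1, EIF2AK3 and EIF2AK4), the eIF2 alpha gene EIF2S1, the eIF2B subunit genes EIF2B1 to EIF2B5, and the phosphatase subunit gene PPP1R15B. They were chosen by name, and EIF2AK2, the gene of a further kinase, PKR, is described with the partners below. All 10 were found among the 22017 genes to which the deposited transcripts were summed, and all 10 passed the filter on low values. All libraries were made from the human glioblastoma cell line U87. In the 2 mimic libraries, the cells had received 50 nM of a tRF-3009a mimic for 48 h by lipofection, and tRF-3 fragments derive from the 3′ end of transfer RNAs. In the 2 control libraries the oligonucleotide was the one that the labels call ssGL2, at the same dose and for the same time. The labels number the libraries 1 and 2 within each group, so they are called mimic 1, mimic 2, control 1 and control 2 here. Nothing in the labels says that they came from separate cultures, so the p-values measure only the spread between these libraries, which may be technical.

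eIF2, a complex of alpha, beta and gamma subunits, carries the initiator transfer RNA to the ribosome when it is bound to GTP. After each round eIF2B, its guanine nucleotide exchange factor, loads it with GTP again. The kinases HRI (EIF2AK1), PERK (EIF2AK3) and GCN2 (EIF2AK4) respond to haem shortage and mitochondrial or oxidative stress, to unfolded protein in the endoplasmic reticulum, and to amino acid shortage with uncharged transfer RNA. Each phosphorylates eIF2 alpha on the same serine. Phosphorylated eIF2 inhibits eIF2B, which lowers general translation and raises translation of the ATF4 mRNA, the arm known as the integrated stress response. PPP1R15B, also called CReP, directs protein phosphatase 1 to eIF2 alpha in unstressed cells, and PPP1R15A, also called GADD34, does so after stress. Kinase activity and phosphorylation lie outside what an RNA measurement shows.

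The promoters of PPP1R15B, EIF2AK4 and EIF2B1 are shown because the RNA of PPP1R15B was higher, and that of the other two lower, in both libraries with number 2. RefSeq promoters on GRCh38.p14 were found for 9 of the 10 genes, as 10 promoters, because EIF2B4 has 2. The gene without one was EIF2AK1, which had the lowest difference with number 2. The promoters of EIF2S1, EIF2B3 and EIF2B5, also lower, are not printed. The 250 bases before the annotated start are printed 5′ to 3′ on the strand of the gene, at chr1:204411818-204412067 on the minus strand for PPP1R15B, chr15:39933865-39934114 on the plus strand for EIF2AK4, and chr12:123633687-123633936 on the minus strand for EIF2B1. The starts are those of RefSeq and differ from the gene bounds given below, which are those of GENCODE. Part of the EIF2B1 window lies inside the bounds given for that gene. Capitals mark matches, on either strand, to the motifs named after the sequences.
PPP1R15B: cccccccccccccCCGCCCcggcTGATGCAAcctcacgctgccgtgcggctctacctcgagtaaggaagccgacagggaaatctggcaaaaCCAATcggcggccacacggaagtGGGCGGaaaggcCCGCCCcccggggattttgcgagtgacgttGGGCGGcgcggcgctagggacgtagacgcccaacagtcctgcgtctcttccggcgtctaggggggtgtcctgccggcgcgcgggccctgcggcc
EIF2AK4: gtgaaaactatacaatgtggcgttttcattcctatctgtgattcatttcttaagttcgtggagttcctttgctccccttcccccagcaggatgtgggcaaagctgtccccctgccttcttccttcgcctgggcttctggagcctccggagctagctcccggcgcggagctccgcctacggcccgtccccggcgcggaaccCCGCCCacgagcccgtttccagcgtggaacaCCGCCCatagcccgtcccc
EIF2B1: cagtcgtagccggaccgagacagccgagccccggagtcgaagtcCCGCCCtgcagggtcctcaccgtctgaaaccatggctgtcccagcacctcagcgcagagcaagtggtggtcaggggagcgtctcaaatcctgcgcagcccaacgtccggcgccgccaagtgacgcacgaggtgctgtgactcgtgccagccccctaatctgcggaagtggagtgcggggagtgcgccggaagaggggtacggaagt

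A composite ATF4 and C/EBP motif, searched as TGATGNAA, stood in 1 of the 10 promoters, that of PPP1R15B, as TGATGCAA with its first base at position -227 from the start. The motif stood in 3.14% of the 35116 promoters searched, and in 4 of the 33 promoters of ATF4 and its listed targets. A GC box, GGGCGG, stood in 6 of the 10 promoters, against 42.6% of all promoters. A CCAAT box stood in 5 of the 10, against 32.0% of all. The cAMP response element TGACGTCA stood in none of the 10 and in 1.65% of all. These are matches of letters in this window, and no motif overlapped another in the printed sequences.

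The libraries were alike in depth, with 28860788 to 33848402 recovered reads. Values below are the deposited size-factor-normalized values, summed over the transcripts of a gene. Across the 16523 genes tested, libraries that share a number were more alike than libraries that share a treatment, with Pearson's r of the log2 values of 0.984 and 0.987 against 0.941 and 0.942. All 8 markers of U87 and mesenchymal glioma were present, with a sum of 325934 to 534178 per library. The 5 epithelial markers summed to 215 and 72.9 in mimic 2 and mimic 1, against 239 and 72.8 in control 2 and control 1, with KRT5 and KRT14 not among the genes with a value. The 4 endothelial markers summed to 44.9 and 192 in mimic 2 and mimic 1, against 60.5 and 165 in control 2 and control 1. The 4 oligodendrocyte markers, without MOG, summed to 437 and 98.9 in mimic 2 and mimic 1, against 425 and 112 in control 2 and control 1. These 3 sums therefore moved with the number, like many of the genes below. The 4 neuronal markers summed to 1139 to 1305 without RBFOX3. The immune markers reported here summed to 7246 to 10230, CD3E was not among the genes with a value, and only CD68, a lysosomal gene, had a mean above 10. The part of these other markers in the results below was not tested. In RNA from whole cultures, a change in the share of cells and a change in RNA per cell cannot be told apart.

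The first comparison asked whether the mimic moved the RNA of these genes. None of the 10 genes passed the test between mimic and control libraries. By limma on log2(value + 1), 0 of 10 passed an adjusted p of 0.05 and 0 had an unadjusted p below it, and edgeR and DESeq2 on recovered reads gave 0 and 0 as well. The background was 0% (0 of 16523 genes), with 26 genes at an unadjusted p below 0.05 by limma, 35 by edgeR and 23 by DESeq2. The differences lay between -0.12 and 0.04 on the log2 scale, 4 above and 6 below 0, with a median of -0.02 beside -0.01 over all genes. Within numbers 2 and 1 the difference had opposite signs in 5 of the 10 genes, as it had in 50.0% of all genes tested. The 95% intervals were wide, from -1.64 to 1.60 at PPP1R15B and from -0.64 to 0.41 at EIF2B2. Differences of these sizes could not be told from 0 in this fit, which leaves the difference between the numbers in the spread. With a term for the number added, they were -0.22 to 0.18 at PPP1R15B and -0.32 to 0.09 at EIF2B2. In that fit limma took the variance wholly from the trend over all genes, so these intervals do not measure each gene's own spread. The labels do not establish that the numbers pair the libraries.

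The second comparison set both libraries with number 2 against both with number 1, with 1 mimic and 1 control library on each side. The labels do not give what a number marks. EIF2AK1, EIF2AK4, EIF2S1, EIF2B1, EIF2B3 and EIF2B5 were lower, and PPP1R15B was higher, in the libraries with number 2. That is 7 of 10 genes called, against 50.2% of all genes tested; lower were 6 of 10, against 24.2%, and higher 1 of 10, against 26.0%. The median of the 10 log2 differences was -0.27, beside 0.01 over all genes. EIF2AK3, EIF2B2 and EIF2B4 did not pass the test. The calls of EIF2AK1, EIF2AK4, EIF2B1 and PPP1R15B held whichever library was left out, while those of EIF2S1, EIF2B3 and EIF2B5 were each lost in some of these fits.

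**Figure D1:**
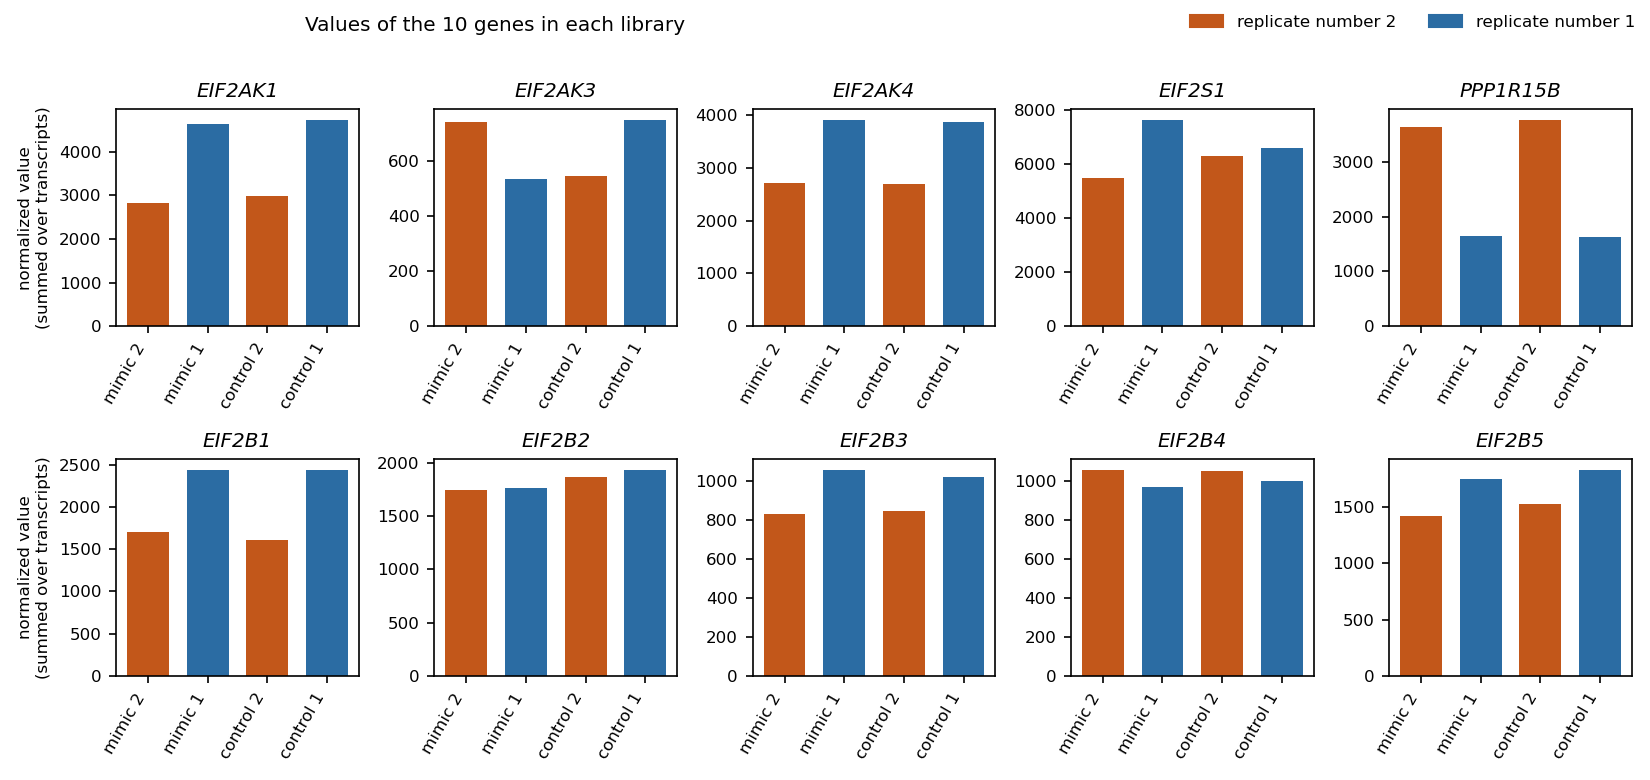
Normalized value of each of the 10 genes (y axis, summed over transcripts, from 0) in each library (x axis), with 1 bar per library coloured by replicate number. The mimic and control bars of a number stand close together for most genes, PPP1R15B reaches 3637 and 3772 in mimic 2 and control 2 against 1647 and 1629 in mimic 1 and control 1, and EIF2AK3 does not follow the numbers.

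The kinase genes did not share a pattern. EIF2AK1, which encodes HRI, lies on chromosome 7 at 6022244 to 6059230 (GRCh38) on the minus strand. Its values were 2817 and 4643 in mimic 2 and mimic 1, against 2989 and 4735 in control 2 and control 1. Both libraries with number 2 were low, and the mimic and control values overlapped. Its difference was -0.69 for number 2 minus number 1 (SE 0.08), which is 1.62-fold lower, with an adjusted p of 9.2e-05 by limma. The fold was 0.607 within the mimic libraries and 0.631 within the control libraries. For mimic minus control its difference was -0.06 (SE 0.38), and it was -0.09 within number 2 and -0.03 within number 1.

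EIF2AK4, which encodes GCN2, lies on chromosome 15 at 39934146 to 40035591 on the plus strand. It had values of 2711 and 3910 in mimic 2 and mimic 1, against 2689 and 3871 in control 2 and control 1. Libraries with the same number differed by little, and both with number 2 were low. The difference was -0.53 for number 2 minus number 1 (SE 0.08), 1.44-fold lower, with a limma adjusted p of 0.0004. The ratios of number 2 to number 1 were 0.693 in the mimic libraries and 0.695 in the control libraries. Mimic minus control was 0.01 (SE 0.32).

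EIF2AK3, which encodes PERK, lies on chromosome 2 at 88556741 to 88627576 on the minus strand and had the lowest values of the 10. It reached 744 and 537 in mimic 2 and mimic 1, against 546 and 751 in control 2 and control 1. Mimic 2 and control 1 were high and mimic 1 and control 2 low, so that neither treatment nor number separated the libraries. These values came from 783 and 596 recovered reads in mimic 2 and mimic 1, against 487 and 722 in control 2 and control 1. The ratio of mimic to control was 1.36 within number 2 and 0.715 within number 1, or 0.45 and -0.48 on the log2 scale. A gap as large between the numbers was seen in 9.24% of the genes tested, and in 0.752% of the 2526 genes with a mean within 1.5-fold of that of EIF2AK3. The gap was the largest among the 10 genes, so these shares describe a gene picked for it and are not a test. For EIF2S1, with the next largest gap, the shares were 26.6%, and 1.89% of 951 genes. With 1 library in each cell of the design, the interaction of treatment and number could not be tested, and this crossed pattern was noticed only in the values. Averaged over the groups, the difference was -0.02 for mimic minus control (SE 0.31) and 0.01 for number 2 minus number 1 (SE 0.19, limma adjusted p = 0.982).

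**Figure D2:**
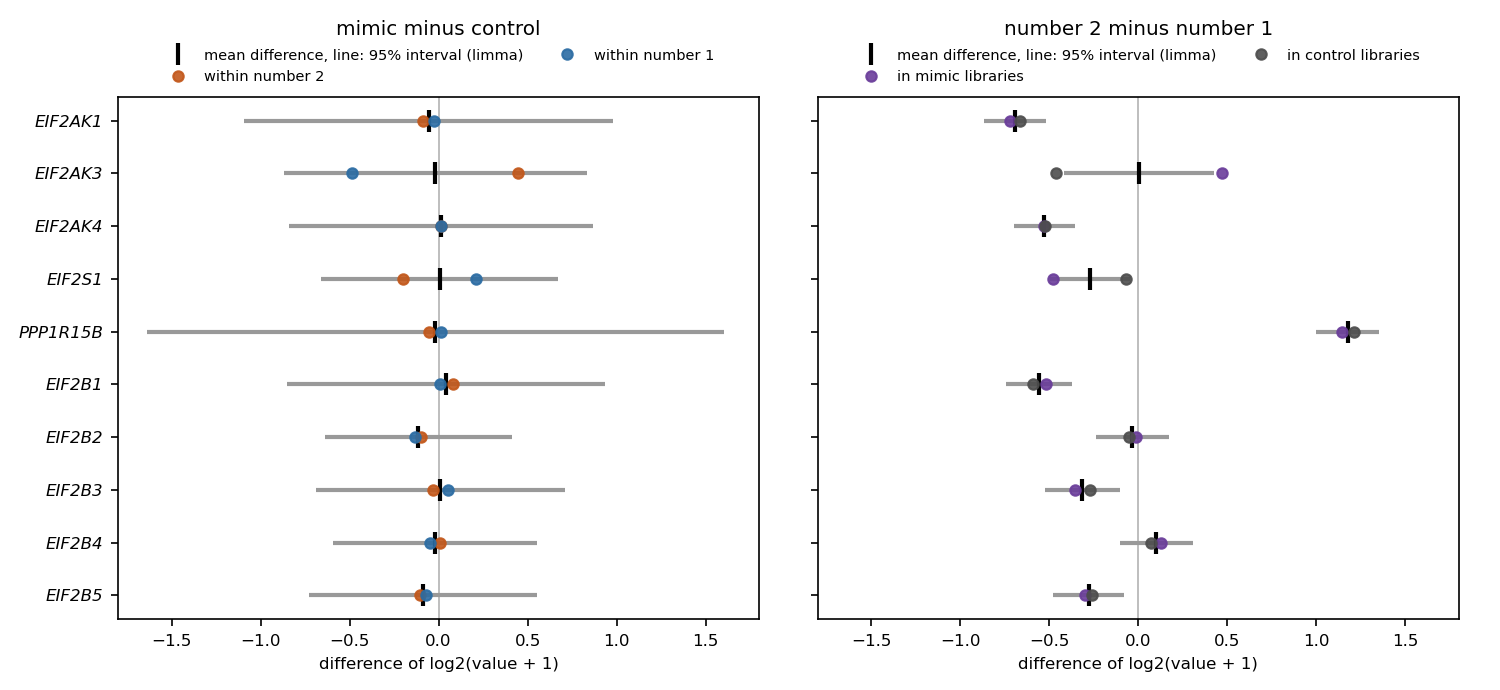
Differences of log2(value + 1) of the 10 genes (rows) for mimic minus control (left) and number 2 minus number 1 (right), with the black tick at the mean, the grey line as the 95% limma interval and coloured points for the single pairs of libraries. On the left every interval spans 0, and the points of EIF2AK3 lie apart at 0.45 within number 2 and -0.48 within number 1; on the right PPP1R15B lies at 1.18 and EIF2AK1 at -0.69.

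EIF2S1, the gene of the subunit that the kinases phosphorylate, lies on chromosome 14 at 67359997 to 67386516 on the plus strand. Its values were 5495 and 7647 in mimic 2 and mimic 1, against 6313 and 6610 in control 2 and control 1. Both controls lay between the mimic libraries. The difference was -0.27 for number 2 minus number 1 (SE 0.10), with a limma adjusted p of 0.0479 that lies just under the threshold. Number 2 was 0.719 of number 1 within the mimic libraries and 0.955 within the control libraries. With 1 library left out in turn its adjusted p was between 0.018 and 0.381, and 1 of the 4 fits still called it; without the filter on low values it was 0.0587. Mimic minus control was 0.01 (SE 0.25), from -0.20 within number 2 and 0.21 within number 1.

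PPP1R15B, the constitutive subunit that brings phosphatase 1 to eIF2 alpha, had the widest range of the 10 on the log2 scale. It lies on chromosome 1 at 204403387 to 204411791 on the minus strand, with the promoter printed above. Its values were 3637 and 1647 in mimic 2 and mimic 1, against 3772 and 1629 in control 2 and control 1. Both libraries with number 2 were high and the numbers did not overlap. Its mean was 3704 ± 95.6 in number 2 and 1638 ± 12.9 in number 1 (SD, n = 2 each). The difference was 1.18 on the log2 scale (SE 0.08, 95% interval 1.00 to 1.35), 2.26-fold higher, with a limma adjusted p of 4.4e-06. Within the mimic libraries the ratio of number 2 to number 1 was 2.21 and within the controls 2.32. Mimic minus control was -0.02 (SE 0.60), with -0.05 within number 2 and 0.02 within number 1.

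Among the eIF2B subunits, those of the regulatory core are EIF2B1 (alpha), EIF2B2 (beta) and EIF2B4 (delta), which bind phosphorylated eIF2. EIF2B1, on chromosome 12 at 123620406 to 123633766 on the minus strand, had values of 1706 and 2442 in mimic 2 and mimic 1, against 1613 and 2433 in control 2 and control 1. Both libraries with number 2 were low, at a difference of -0.55 (SE 0.08), 1.47-fold lower, with a limma adjusted p of 0.0005. EIF2B2, on chromosome 14 at 75002911 to 75012366 on the plus strand, had 1748 and 1766 in mimic 2 and mimic 1, against 1870 and 1937 in control 2 and control 1. Both mimic libraries were lower than both controls, the only such case among the 10, where 12.4% of all genes tested had groups that did not overlap. The mean was 1757 ± 12.5 in the mimic and 1903 ± 47.7 in the control libraries (SD, n = 2 each), a difference of -0.12 (SE 0.19) that did not pass the test. EIF2B2 did not pass between the numbers either (-0.03, SE 0.09, limma adjusted p = 0.785). EIF2B4, on chromosome 2 at 27364352 to 27370486 on the minus strand, had 1059 and 967 in mimic 2 and mimic 1, against 1052 and 1001 in control 2 and control 1. Its values with number 2 lay above those with number 1, at 0.10 (SE 0.09, limma adjusted p = 0.386).

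The other eIF2B subunits, EIF2B3 (gamma) and EIF2B5 (epsilon), form the catalytic part, and EIF2B5 holds the exchange activity. EIF2B3, on chromosome 1 at 44850522 to 44986722 on the minus strand, had values of 830.0 and 1061 in mimic 2 and mimic 1, against 847 and 1024 in control 2 and control 1. Number 2 was lower, at -0.31 (SE 0.09), with a limma adjusted p of 0.0201, and 2 of the 4 fits with a library left out kept the call. EIF2B5, on chromosome 3 at 184135038 to 184146112 on the plus strand, had 1423 and 1748 in mimic 2 and mimic 1, against 1532 and 1835 in control 2 and control 1. Number 2 was lower, at -0.28 (SE 0.09), with a limma adjusted p of 0.0258, and 1 of the 4 fits kept the call. Between mimic and control, EIF2B1, EIF2B3, EIF2B4 and EIF2B5 differed by 0.04, 0.01, -0.02 and -0.09, with SEs of 0.21 to 0.33. Across all 10 genes the values with number 2 and number 1 did not overlap in 8, against 75.8% of all genes tested, and the exceptions were EIF2AK3 and EIF2B2.

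The subunits form a complex with equal copies of each, so their RNA levels per transcript length, computed as TPM over the matched transcripts, were also set against EIF2B4 in the same library. The EIF2B1 ratio was 1.21 and 1.91 in mimic 2 and mimic 1, against 1.16 and 1.73 in control 2 and control 1. The EIF2B3 ratio was 0.874 and 1.23 in mimic 2 and mimic 1, against 0.931 and 1.14 in control 2 and control 1. The EIF2B5 ratio was 0.935 and 1.33 in mimic 2 and mimic 1, against 1.06 and 1.28 in control 2 and control 1. These ratios were lower with number 2 in both groups, and their size depends on which transcripts are counted, as given below. The EIF2B2 ratio stayed within 2.43 to 2.75 in the 4 libraries. The level per length summed over the 5 subunits was 246.6 and 295.9 TPM in mimic 2 and mimic 1, against 249.6 and 295.2 in control 2 and control 1.

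**Figure D3:**
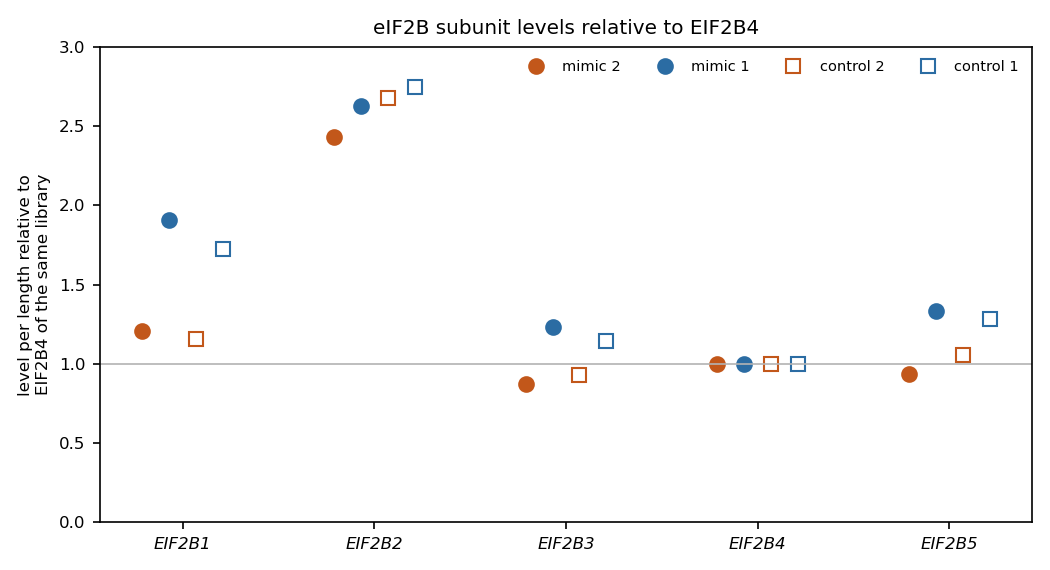
Level per length of each eIF2B subunit gene (x axis) divided by that of EIF2B4 in the same library (y axis, from 0), with filled circles for mimic and open squares for control libraries, coloured by number. EIF2B1, EIF2B3 and EIF2B5 are lower in both libraries with number 2, and EIF2B2 stays between 2.43 and 2.75.

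Part of the balance between phosphatase and kinases was described by the level per length of PPP1R15B over the sum of EIF2AK1, EIF2AK3 and EIF2AK4. EIF2AK2 and PPP1R15A, whose values are given below, are not in this ratio, so the whole balance was not measured. The ratio was 0.459 and 0.138 in mimic 2 and mimic 1, against 0.467 and 0.139 in control 2 and control 1. The kinase sum was 93.9 and 147.8 TPM in mimic 2 and mimic 1, against 93.8 and 138.5 in control 2 and control 1. Both parts of the ratio moved with the number, and mimic and control stood side by side within each number. EIF2AK1 over EIF2AK3 was 4.57 and 8.78 in mimic 2 and mimic 1, against 6.20 and 6.25 in control 2 and control 1, which repeats the crossed values of EIF2AK3.

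In level per length summed over transcripts, EIF2S1 stood highest, at 269 TPM on average (196 to 376 over the 4 libraries), and EIF2B2 followed at 97.4 (93.0 to 103). EIF2AK1 came next at 66.3 (49.6 to 86.8), then EIF2B1 at 55.7, EIF2B5 at 42.7, EIF2AK4 at 41.8, EIF2B3 at 38.8, EIF2B4 at 37.2 and PPP1R15B at 31.6. From EIF2AK1 to PPP1R15B the range of each gene over the libraries overlapped that of its neighbour. Within every library, though, EIF2AK1 lay above EIF2B1, and EIF2B1 above EIF2B5. From EIF2B5 to PPP1R15B the order of neighbours changed between libraries. Ranges of genes further apart could be separate, as the lowest EIF2AK1 value, 49.6, lay above the highest of EIF2B5, 48.6, and of EIF2B3, 45.0. EIF2AK3 was lowest at 10.4 (8.56 to 12.1), below every value of PPP1R15B. This order depends on short transcripts, which weigh more per length. With the leading protein-coding transcript of each gene alone, a measure added after the values were seen, EIF2S1 averaged 62.6 TPM and overlapped EIF2AK1 at 50.2. On that measure EIF2B2 was lowest at 7.72 (7.11 to 8.25), beside EIF2AK3 at 7.91 (6.27 to 9.70), and the EIF2B2 to EIF2B4 ratio was 0.40 to 0.49. The EIF2B1 to EIF2B4 ratio was then 2.23 and 3.51 in mimic 2 and mimic 1, against 2.06 and 3.46 in control 2 and control 1. For EIF2B5 it was 1.46 and 1.90 in mimic 2 and mimic 1, against 1.44 and 2.02 in control 2 and control 1. The EIF2B4 transcript used holds 43.0% to 44.2% of that gene. Except in EIF2B4, the leading coding transcripts had another version than the annotation used here. Their lengths, and so these orders and ratios, may differ.

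By transcript, the 10 genes had 72 transcripts with a value, of which 30 were annotated as protein coding, 23 as retained intron and 14 as targets of nonsense-mediated decay; 50 passed the filter. Between mimic and control, limma called 0 of the 50 and none had an unadjusted p below 0.05, beside 0% of the 58486 transcripts tested, of which 922 had an unadjusted p below 0.05. Between the numbers 4 were called, against 8.32% of all transcripts. PPP1R15B-201, the only PPP1R15B transcript in the table, was higher with number 2, by 1.18 (limma adjusted p = 0.0095). EIF2AK1-201, EIF2AK4-201 and EIF2B1-201, which hold 91.2% to 96.6% of the summed value of their genes, were lower, at -0.70, -0.51 and -0.57, with limma adjusted p-values of 0.0206, 0.0301 and 0.0363. With any library left out, limma called 0 transcripts in all, with 11282 to 13648 at an unadjusted p below 0.05.

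EIF2B2 was the only one of the 10 genes with most of its value outside protein-coding transcripts, 68.3% to 71.6% in the 4 libraries. The retained-intron transcript EIF2B2-207 had 606 and 595 in mimic 2 and mimic 1, against 658 and 671 in control 2 and control 1. The coding transcript EIF2B2-201 had 496 and 551 in mimic 2 and mimic 1, against 524 and 567 in control 2 and control 1. Both were lower in the mimic libraries than in the controls of the same number, and neither passed the test. The retained-intron EIF2B2-205 held 20.7% to 21.4% of the gene. EIF2B2-202, annotated for nonsense-mediated decay, held 14.6% and 8.98% in mimic 2 and mimic 1, against 13.4% and 12.1% in control 2 and control 1. In EIF2S1 the coding EIF2S1-201 held 74.4% and 62.2% in mimic 2 and mimic 1, against 73.6% and 68.4% in control 2 and control 1. Its value was 4088 and 4753 in mimic 2 and mimic 1, against 4648 and 4523 in control 2 and control 1, a difference of -0.09 between the numbers (SE 0.09, limma adjusted p = 0.571). The retained-intron transcript EIF2S1-203 had 454 and 946 in mimic 2 and mimic 1, against 514 and 727 in control 2 and control 1. The short EIF2S1-204 had 369 and 848 in mimic 2 and mimic 1, against 460 and 628 in control 2 and control 1. Neither of these transcripts passed the test (-0.78 and -0.82, limma adjusted p = 0.0823 and 0.103), and both had their lower value with number 2 in each group. The short retained-intron transcript EIF2S1-205 had 436 and 945 in mimic 2 and mimic 1, against 599 and 606 in control 2 and control 1, and did not pass either (-0.56, limma adjusted p = 0.303).

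The crossed values of EIF2AK3 came from its main transcript. EIF2AK3-201 had 688 and 451 in mimic 2 and mimic 1, against 499 and 727 in control 2 and control 1. EIF2AK3-202 was estimated at 50.6 and 64.7 in mimic 2 and mimic 1, against 33.6 and 0 in control 2 and control 1. EIF2B3 was split between EIF2B3-201, with 52.6% to 62.7%, and EIF2B3-203, with 29.1% to 42.5%. EIF2B4 was split between EIF2B4-205, with 43.0% to 44.2%, and EIF2B4-201, with 36.0% to 43.6%. EIF2B5-227 held 68.8% to 74.8% of EIF2B5. Exons of 6 of the genes overlap exons of a gene on the other strand that also has a value. They are EIF2AK1 with AIMP2 over 532 bases, EIF2S1 with ATP6V1D over 269, EIF2B1 with DDX55 over 536 and GTF2H3 over 28, and EIF2AK3, EIF2B4 and EIF2B5 with antisense genes. The library kit keeps the strand, but whether the authors' counting used it is not given in the sources used here. Values of these 6 genes are therefore uncertain to the extent of those exons. The same holds for EIF2B2 and EIF2B3, whose exons overlap other-strand genes without a value here. These are AL049780.3 over 1098 bases and AL049780.1 over 185 at EIF2B2, and CCNB1IP1P1 over 347 at EIF2B3.

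**Figure D4:**
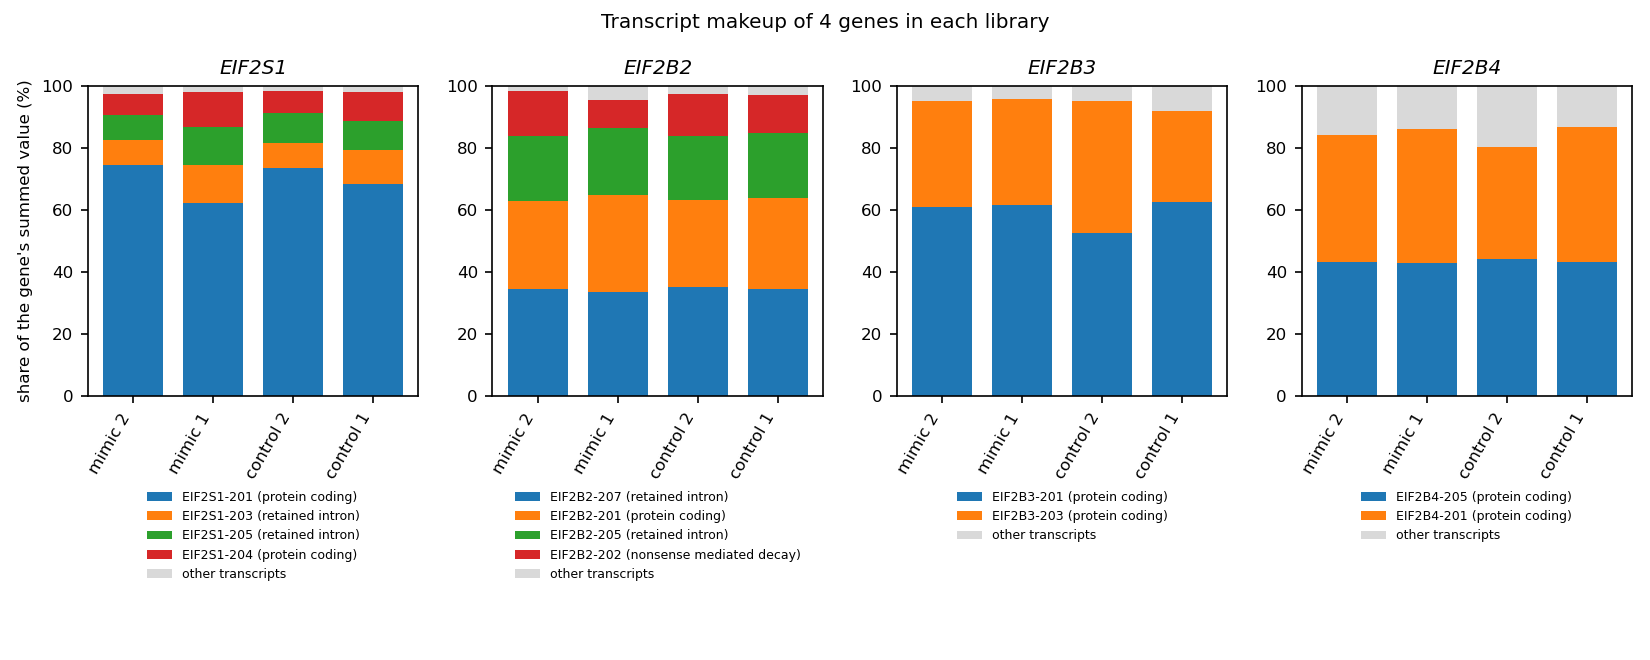
Share of the summed value of EIF2S1, EIF2B2, EIF2B3 and EIF2B4 held by each transcript (y axis, %) in each library (x axis). The retained-intron EIF2B2-207 and EIF2B2-205 together hold more of EIF2B2 than the coding EIF2B2-201 in every library, and EIF2S1-201 holds 74.4% in mimic 2 and 62.2% in mimic 1.

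The remaining genes of the pathway were described from lists chosen by role. Between mimic and control, limma, edgeR and DESeq2 called 0 genes of any list, and by limma no list gene had an unadjusted p below 0.05. The median log2 difference was 0.03 for the partners of eIF2, 0.01 for partners of the kinases and phosphatase, -0.03 for ATF4 and its targets, -0.01 for the IRE1 and ATF6 branch, -0.05 for other initiation factors and -0.07 for the cell cycle, beside -0.01 over all genes. IMPACT, an inhibitor of GCN2 activation, had 1915 and 1726 in mimic 2 and mimic 1, against 1740 and 1387 in control 2 and control 1 (0.23, SE 0.23). GCN1, the activator of GCN2, differed by -0.10 (SE 0.21), and EIF2S2, the beta subunit of eIF2, by 0.09 (SE 0.23). None of these passed the test.

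Between the numbers, 5 of the 12 partners of eIF2 were higher, 2 were lower and 5 did not pass, with a median of 0.19. Of all genes tested, 26.0% were higher and 24.2% lower, and the share called in this list lies near that background. The genes of the other eIF2 subunits were higher with number 2. The summed value of EIF2S1 was lower, a call lost in some fits with a library left out. Its main coding transcript, EIF2S1-201, did not pass the test (-0.09, limma adjusted p = 0.571). EIF2S2 had 10507 and 8965 in mimic 2 and mimic 1, against 10242 and 8076 in control 2 and control 1 (0.29, SE 0.08, limma adjusted p = 0.016). EIF2S3, the gamma subunit, had 6017 and 5234 in mimic 2 and mimic 1, against 6350 and 4746 in control 2 and control 1 (0.31, SE 0.08, limma adjusted p = 0.0117). EIF1, which guards start codon choice, was higher by 1.18, and EIF1B, its close paralogue, by 1.44. EIF5, the GTPase activator of eIF2, was lower, at -0.83, as was EIF1AX, at -0.41. Directions within this list were therefore mixed.

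Of the 15 partners of the kinases and phosphatase, 4 were higher, 5 were lower and 6 did not pass, with a median of -0.07, again near the 50.2% of all genes called. PPP1R15A had 11761 and 3107 in mimic 2 and mimic 1, against 11638 and 3300 in control 2 and control 1. Like PPP1R15B it was high with number 2, by 1.87 (SE 0.08, limma adjusted p = 2.8e-07). The catalytic subunits of phosphatase 1 went different ways, with PPP1CB higher by 0.45, PPP1CC lower, at -0.90 and PPP1CA at -0.15, which did not pass. DELE1, the mitochondrial activator of HRI, was higher by 0.61. HSP90AA1, a chaperone of HRI and other kinases, was lower, at -1.23, and HSP90AB1 at -0.52. EIF2AK2, the gene of the kinase PKR, had 2235 and 2349 in mimic 2 and mimic 1, against 2140 and 2237 in control 2 and control 1, and did not pass the test (-0.07, SE 0.08, limma adjusted p = 0.521).

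The lists that follow stand beside 26.0% of all genes tested higher with number 2, 24.2% lower, and a median of 0.01. All 24 of ATF4 and its listed targets were higher with number 2, with a median of 3.05. These targets include enzymes and regulators that phosphorylated eIF2 alpha is known to raise through ATF4. ATF4 itself had 17050 and 6836 in mimic 2 and mimic 1, against 17967 and 7289 in control 2 and control 1. ASNS, asparagine synthetase, had 17176 and 914 in mimic 2 and mimic 1, against 18173 and 857 in control 2 and control 1. NUPR1, STC2 and ATF3 were higher by 3.41, 3.24 and 3.98. Of the 12 genes of the IRE1 and ATF6 branch, 7 were higher and 5 lower, with a median of 0.61, with XBP1 at 1.93, ERN1 at 2.43, HSPA5 at 1.69 and HERPUD1 at 1.37 among the higher, and CRELD2 at -1.01, PDIA4 at -0.61 and SDF2L1 at -0.58 among the lower. Of 24 other initiation factors, 7 were higher, 10 lower and 7 did not pass, with a median of -0.09. EIF4EBP1, the inhibitor of the cap-binding factor, was higher by 1.44 and EIF6 by 0.99, and EIF3G was lower, at -0.74, and EIF3L at -0.62. All 13 cell cycle genes were lower, with a median of -1.86, for example MKI67 at -2.68 and TOP2A at -2.22. The part of these differences in the differences of the 10 genes was not tested.

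**Figure D5:**
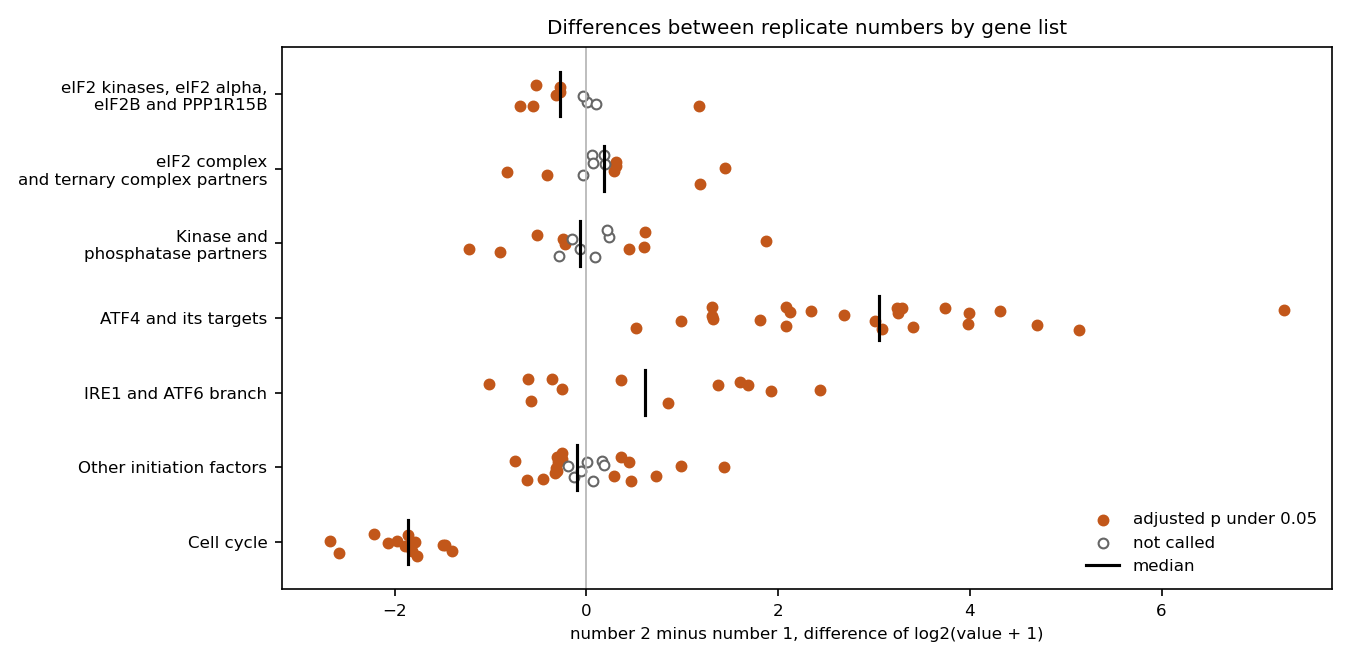
Difference of log2(value + 1) between numbers, number 2 minus number 1 (x axis), for each gene of the 10 described and of 6 lists (rows), with filled points for an adjusted p under 0.05, open points for genes not called, and a bar at the median. ATF4 and its targets lie above 0 and cell cycle genes below 0, and the 10 genes have a median of -0.27 with PPP1R15B at 1.18 apart from the others.

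Of 6136 protein-coding genes with a mean of at least 1000, those nearest to PPP1R15B in their centred log2 values over the 4 libraries were IGF2R, PRNP and PDP1, at distances of 0.019, 0.025 and 0.046. IGF2R, the cation-independent mannose 6-phosphate receptor, had 32449 and 14466 in mimic 2 and mimic 1, against 33127 and 14352 in control 2 and control 1. PRNP encodes the prion protein, and PDP1 a phosphatase of mitochondrial pyruvate dehydrogenase. With 4 libraries that fall into pairs by number, such nearness describes these libraries only.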

How the data were processed

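Polyadenylated RNA of 4 U87 libraries was sequenced as pairs with a directional kit, per the labels' protocols. kallisto, DESeq2 and hg38 are named in the submitters' processing notes; versions and the annotation release are not given in the sources used here. The authors deposited a normalized signal per Ensembl transcript, which is estimated reads divided by a size factor as far as the values show. In low values, 95.6% to 99.7% were whole multiples (tolerance 0.1) of what a read was worth, which gave the whole reads that edgeR and DESeq2 took. No row summed to fewer than 10 such reads.

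Of 100809 transcripts, 90627 (89.9%) matched GENCODE v29 by identifier, 79207 with the same version, and were summed over 22017 genes; the rest held 3.26% to 3.57% of the values. Of the 72 transcripts of the 10 genes, 10 had another version, so their lengths may differ from those the authors used. They include the leading protein-coding transcript of every one of the genes except EIF2B4. The orders and ratios of levels per length between genes rest on these lengths. Levels per length are TPM computed from the deposited signal over matched transcripts. limma with a trend was run on log2(value + 1), which understates changes of low genes, for genes or transcripts whose mean reached 10, as two-sided tests at a Benjamini-Hochberg adjusted p of 0.05 over all of them. On simulated data with a difference between numbers like that seen here, this fit did not recover the mimic changes put in. A count of 0 between mimic and control therefore does not show that they are alike. The fit with the replicate block recovered most of the changes put in. These were 2-fold or 4-fold, with the same scatter set for every gene, and smaller changes were not tried. All 4 libraries entered each fit, with 1 term. Whether a shared number pairs libraries is not in the labels.

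The 10 genes, the lists, the markers and the comparisons were chosen with earlier results of these data known. All 10 genes are named. A marker gene is not reported here. Transcripts named are the leading one of each gene, those with 10% or more of it in any library and those called. From each list the 4 genes with the smallest p-values were taken as candidates in each comparison; ATF4, EIF2AK2, EIF2S2, EIF2S3, PPP1CA, PPP1CB, HSP90AB1, CRELD2, PDIA4 and SDF2L1 were added after their values were seen. Alternatives were other pseudocounts, filters, scalings, edgeR, DESeq2, the replicate block, a lowess correction for GC content (span 0.3) and each library left out. Tools were limma 3.58.1, edgeR 4.0.16 and DESeq2 1.42.0 under R 4.3.3, and pandas 2.3.3, numpy 2.4.6, matplotlib 3.10.9 and scipy 1.17.1 under Python 3.11.15. Depth was 28860788 to 33848402 recovered reads per library.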

Additional observations from a re-analysis of the deposited data

How the results depend on the processing

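Between mimic and control, 0 of the 10 genes were called under every alternative run. With the replicate block, which the labels do not establish as a pairing, limma called 117 of all genes (55 higher, 62 lower), edgeR with the block 91, and the block with GC correction 2; none of these was among the 10. The deviations of same-numbered libraries from their group means correlated at r = 0.745, which with 2 libraries a group is a single value. Each library left out gave 0 genes, and differences of -0.42 to 0.30 for EIF2AK1, -0.25 to 0.22 for EIF2AK3, -0.25 to 0.28 for EIF2AK4, -0.23 to 0.24 for EIF2S1, -0.25 to 0.34 for EIF2B1, -0.14 to -0.09 for EIF2B2, -0.17 to 0.19 for EIF2B3, -0.086 to 0.045 for EIF2B4, -0.24 to 0.060 for EIF2B5 and -0.62 to 0.59 for PPP1R15B; the remaining libraries then hold unequal numbers on each side. The block with GC correction turned the sign of EIF2AK4 (-0.014), EIF2S1 (-0.056), EIF2B3 (-0.014) and EIF2B4 (0.011), all near 0; the cause was not tested.

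Between the numbers, 7 of the 10 genes were called with the replicate block as well, and 6 without the filter on low values. Leaving out a library gave 4 to 6 of the 10 and 5160 to 7941 of all genes; mimic 2 and control 2 each left 4 (EIF2AK1, EIF2AK4, EIF2B1 and PPP1R15B) when left out. The differences were then -0.24 to 0.25 for EIF2AK3 and -0.10 to 0.034 for EIF2B2. EIF2AK3 was -0.0012 with TMM scaling and -0.0020 with DESeq2, and EIF2B2 was 0.0037 with the block and GC correction. Of all transcripts, 4864 were called, 1792 with the replicate block and 0 with any library left out, where an arm is a single library assumed to vary like the rest; the block kept EIF2AK1-201 and PPP1R15B-201 of the 4 called. Depth limits EIF2AK3 most, which had 487 to 783 reads per library.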
